A study of Mus musculus with 31 samples.

Results

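Interferon-stimulated genes are described here in mouse natural killer (NK) cells, innate lymphocytes that kill infected and tumour cells. The set holds 9 genes of the 27179 in the deposited count table: Rsad2, Isg15, Ifit1, Ifit3, Irf1, Irf7, Stat2, Bst2 and Ifi208. They were given as a list of symbols, chosen by their measured values in these same libraries, the response to TGFB1 among them, and all 9 symbols matched an Entrez identifier of the table. The responses to TGFB1, and the genotype differences under TGFB1, are therefore given for these 9 genes as a description, without p-values. RNA was sequenced from sorted NK cells of 3 genotypes: wild type (WT), a knockout of the type II TGF-β receptor (TGFBRII KO), and a knockout of CIS (CIS KO), a suppressor of cytokine signalling encoded by Cish. Each genotype was measured unstimulated, after 4 h with TGFB1 and after 24 h with TGFB1, in 31 libraries and 9 groups. WT had 4, 2 and 4 libraries in these conditions, TGFBRII KO had 3, 3 and 3, and CIS KO had 4, 4 and 4. The alleles, any Cre driver, the strain, the age and sex of the mice, the organ, the TGFB1 dose and the culture medium are not given in the labels. No cells kept in culture without TGFB1 were analysed here, so every response includes any change with time in culture.

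Library depth was low, between 297561 and 1403005 counts (median 736193), so a gene at a few CPM (counts scaled to library size) had only a handful of reads. CIS KO libraries held 18.04 to 56.1 CPM of Cish, against 129.9 to 289 CPM in WT. TGFBRII KO libraries held 199 to 276 CPM of the receptor gene Tgfbr2, against 189 to 361 CPM in WT, so its count per gene does not check that label. The labels do not name the deleted part of the gene. At 24 h of TGFB1, 2 of 10275 genes were called (adjusted p under 0.05 by edgeR) in TGFBRII KO and 2166 in WT. At 4 h the counts were 824 in TGFBRII KO and 1226 in WT. The TGFBRII KO count at 24 h was 79 with no filter on low counts and 206 when only the 2 compared groups were fitted. All 10 NK cell markers passed the filter on low counts. Of the markers of plasmacytoid dendritic cells, the blood cells that make most type I interferon, Siglech, Klk1 and Ly6d were at 0 counts in all 31 libraries. The 8 genes of that list summed to 268 to 552 CPM, mainly Tcf4 (265 to 394 CPM) and Pacsin1 (0 to 181 CPM). Their sum was higher with TGFB1 in the genotypes that keep the receptor, with means of 326, 409 and 507 CPM in WT unstimulated, at 4 h and at 24 h, 324, 410.4 and 476 CPM in CIS KO and 342, 317 and 357 CPM in TGFBRII KO. Their part in the results was not tested. T cell markers summed to 182 to 319 CPM, mainly Cd3g and Cd3d, while Cd4, Cd8a and Cd8b1 had at most 2 counts in any library. Conventional dendritic cell markers summed to 195 to 376 CPM, mainly Itgax and Xcr1, with Clec9a, Flt3 and Cd209a at 0 counts throughout. Stromal and epithelial markers summed to 264 to 487 CPM, mainly Pecam1 (182 to 347 CPM) and Epcam (50.5 to 140 CPM). Of the same list, Col1a2 was at 0 counts, Col1a1 at 1 at most and Krt18 at 3 at most. The stromal and epithelial sum was highest at 4 h in WT (means of 279, 381 and 321 CPM in the same order) and CIS KO (356, 439.8 and 350.0 CPM) and stood at 304, 306 and 319 CPM in TGFBRII KO, and its part in the results was not tested either. The summed level of 6 B cell markers ran from 0 to 4.99 CPM and that of 10 macrophage, monocyte and neutrophil markers from 17.9 to 49.4 CPM, against 2692 to 6369.6 CPM for the NK list. In bulk RNA, fewer cells of a type and less RNA per cell cannot be told apart. Xist, a transcript of female cells, was at 5.22 CPM or less in CIS KO libraries and at 91.1 CPM or more in WT, with TGFBRII KO between 12.6 and 131 CPM. The Y-linked genes Ddx3y, Eif2s3y, Uty and Kdm5d summed to 1.38 to 124 CPM in WT, 187 to 451 CPM in TGFBRII KO and 392 to 558 CPM in CIS KO. On this sum WT overlapped neither knockout, so sex and genotype cannot be told apart in comparisons between genotypes.

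Type I interferons bind the receptor pair Ifnar1 and Ifnar2, and the kinases Jak1 and Tyk2 then phosphorylate STAT factors, Stat2 among them. With Irf9, Stat2 takes part in a complex that binds the interferon-stimulated response element (ISRE) in promoters of genes such as Isg15 and the Ifit genes. Interferon-γ, which NK cells make themselves, acts at gamma-activated sites (GAS). TGF-β signals through its type II and type I receptors to Smad factors, and it is known to restrain NK cell effector function.

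The promoters carried the interferon element in most of these genes. Each window held the 250 bases before a listed RefSeq start (GRCm38.p6, the assembly named mm10). For Ifi208, Ifit3, Irf7 and the later of the Irf1 windows, that start lies inside the gene bounds given below. These windows therefore overlap the gene or lie within it. The ISRE core was read as GAAA, any 2 bases and GAAA on either strand. It was found in 7 of the 10 windows of the 9 genes (Irf1 has 2), and in 2.98% of 32851 promoter windows of 27025 genes. Of 123 other interferon genes with a window, 38 held it. Irf1 and Irf7 were the members without it. A GAS core, TTCNNNGAA, was found in 2 of the 10 windows, of Bst2 and Irf1, and in 7.02% of all windows. The Smad palindrome GTCTAGAC was in 0 of the 10 windows and in 0.167% of all, and the short Smad letters CAGAC were in 4 of 10 and in 42.2% of all. The ISRE core can overlap itself, so that neighbouring matches share bases. A match is a description of letters only. The windows of 3 genes are shown because they hold the same element and their transcripts followed different courses with TGFB1: Rsad2 from chr12:26456453-26456702 (minus strand), Isg15 from chr4:156200819-156201068 (minus strand) and Ifi208 from chr1:173673415-173673664 (plus strand). Capitals mark the bases of the ISRE core or its reverse complement. The last match ends 110 bases before the listed start in Rsad2 and 48 bases before the listed start in Ifi208, which lies inside the gene bounds. Isg15 has 3 overlapping matches that end 68, 62 and 56 bases before its listed start.
Rsad2 promoter: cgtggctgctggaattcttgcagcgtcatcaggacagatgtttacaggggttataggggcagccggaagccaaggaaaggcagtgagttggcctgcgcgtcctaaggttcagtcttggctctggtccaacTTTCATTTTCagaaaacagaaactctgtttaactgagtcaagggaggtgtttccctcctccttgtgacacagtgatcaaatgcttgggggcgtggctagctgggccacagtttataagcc
Isg15 promoter: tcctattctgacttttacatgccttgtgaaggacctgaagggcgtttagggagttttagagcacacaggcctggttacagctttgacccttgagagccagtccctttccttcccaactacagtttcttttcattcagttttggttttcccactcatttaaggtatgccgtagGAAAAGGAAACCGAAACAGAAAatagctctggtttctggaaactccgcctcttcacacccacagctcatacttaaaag
Ifi208 promoter: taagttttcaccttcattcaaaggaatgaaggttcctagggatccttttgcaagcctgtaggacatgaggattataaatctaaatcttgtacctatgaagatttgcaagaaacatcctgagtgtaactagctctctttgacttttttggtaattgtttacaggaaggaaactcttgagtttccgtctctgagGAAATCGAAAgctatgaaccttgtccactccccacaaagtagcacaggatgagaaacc

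Levels differed widely between the members. Scaled to exon length, the mean in unstimulated WT cells was 55.7 CPM per kb for Isg15, 49.5 for Bst2 and 42.1 for Irf1. It was 11.04 CPM per kb for Ifi208, 9.86 for Irf7, 6.72 for Stat2, 2.28 for Rsad2, 2.02 for Ifit1 and 2.02 for Ifit3. Ifit1 had 0 to 8 counts per library and Ifit3 0 to 16, and neither passed the filter, so 7 of the 9 genes were fitted.

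Rsad2 (Entrez 58185; mm10 chromosome 12, 26442743 to 26456452, minus strand) encodes viperin, an enzyme that makes a chain-terminating nucleotide and limits virus replication. It was higher after 4 h of TGFB1 in both genotypes that keep the receptor and was back near the unstimulated level by 24 h. In WT the libraries stood at 10.2, 13.7, 10.1 and 5.52 CPM unstimulated, at 63.9 and 48.9 CPM at 4 h and at 10.7, 7.55, 10.4 and 17.8 CPM at 24 h. In CIS KO they stood at 5.52, 5.57, 17.7 and 8.32 CPM, then at 62.4, 80.8, 53.5 and 64.3 CPM and then at 12.7, 20.9, 12.5 and 12.2 CPM. In TGFBRII KO they stood at 8.87, 14.5 and 8.51 CPM, 8.43, 14.4 and 11.4 CPM and 11.9, 15.1 and 7.14 CPM. All 6 libraries of WT and CIS KO at 4 h were above all other 25 libraries, and the other 7 groups overlapped their neighbours in the order of means. Against unstimulated cells of the same genotype alone, 16.9% of all genes tested were higher at 4 h without overlap in WT and 10.4% in CIS KO.

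The log2 fold change of Rsad2 at 4 h was 2.42 ± 0.34 (estimate ± SE) in WT, a 5.34-fold difference, and 2.77 ± 0.31 in CIS KO, a 6.80-fold difference. It was 0.084 ± 0.40 in TGFBRII KO. The TGFBRII KO response less the WT response was -2.33 ± 0.54 on the log2 scale, and the CIS KO response less the WT response was 0.35 ± 0.50. From 4 h to 24 h the log2 change was -2.23 ± 0.34 in WT and -2.04 ± 0.26 in CIS KO. Against unstimulated cells, the values at 24 h were 0.18 ± 0.35 in WT, 0.73 ± 0.37 in CIS KO and 0.087 ± 0.40 in TGFBRII KO. Leaving out 1 library at a time gave 2.25 to 2.66 for WT and 2.59 to 3.23 for CIS KO at 4 h. Without unstimulated CIS KO replicate 3, the highest of its group, the CIS KO value at 24 h was 1.19.

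**Figure D1:**
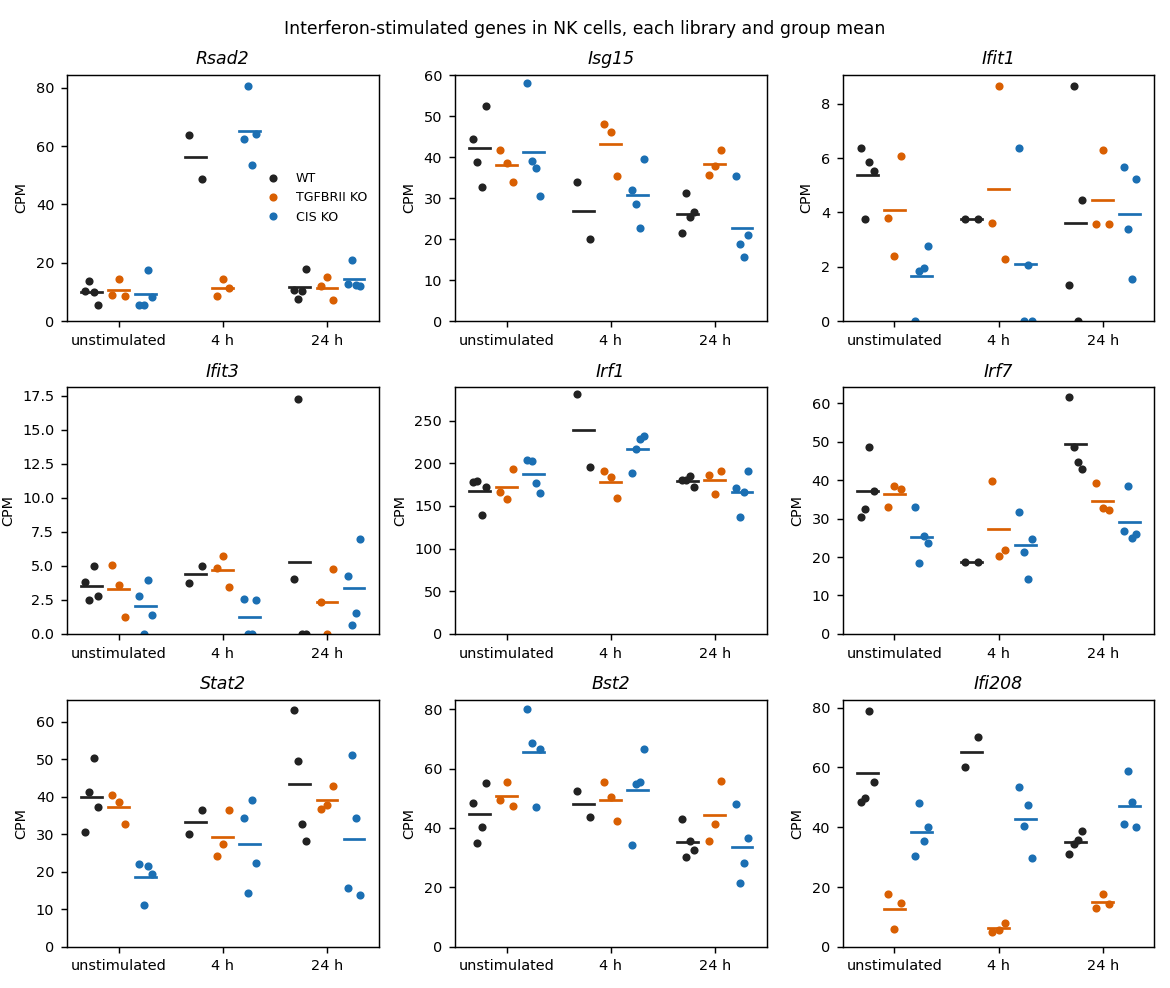
Level of each of the 9 interferon-stimulated genes in CPM (y axis) by condition (x axis), with 1 point per library, a bar at each group mean and colours for genotype. Rsad2 stands at 48.9 CPM or more in the 6 WT and CIS KO libraries at 4 h and at 20.9 CPM or less in the rest, and Ifi208 is lowest in the 9 TGFBRII KO libraries.

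Isg15 (Entrez 100038882; chromosome 4, 156199424 to 156200818, minus strand), a ubiquitin-like protein that is joined to other proteins after interferon, was lower with TGFB1 where the receptor was present. In WT it ran 44.5, 38.7, 32.7 and 52.5 CPM unstimulated, 33.8 and 20.04 CPM at 4 h and 21.5, 31.3, 25.3 and 26.7 CPM at 24 h. In CIS KO it ran 57.998, 38.96, 37.3 and 30.5 CPM, 31.8, 28.5, 22.6 and 39.5 CPM and 35.4, 18.9, 15.6 and 20.9 CPM. In TGFBRII KO it ran 41.8, 38.6 and 34.02 CPM, 48.2, 46.1 and 35.4 CPM and 35.6, 37.7 and 41.7 CPM. The 24 h WT libraries lay below all unstimulated WT libraries, while the CIS KO groups overlapped. In that WT comparison 11.9% of all genes tested were lower without overlap. The log2 fold change at 24 h was -0.64 ± 0.22 in WT, -0.82 ± 0.24 in CIS KO and 0.0088 ± 0.23 in TGFBRII KO. At 4 h it was -0.78 ± 0.31, -0.37 ± 0.25 and 0.18 ± 0.23, and the 4 h WT libraries overlapped the unstimulated ones. The 24 h values ran -0.77 to -0.53 in WT and -1.09 to -0.66 in CIS KO when 1 library at a time was left out. The TGFBRII KO response less the WT response was 0.96 ± 0.39 at 4 h and 0.65 ± 0.32 at 24 h, and neither was called. Isg15 overlaps the gene model Gm46878 at its end, which is not a row of the count table.

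Bst2 (Entrez 69550; mm10 chromosome 8, 71534255 to 71537472, minus strand) encodes tetherin, which holds budding viruses at the cell surface. It was lower after 24 h in CIS KO, from 80.1, 68.6, 47.1 and 66.6 CPM unstimulated to 48.1, 21.6, 28.1 and 36.6 CPM at 24 h, with 34.4, 54.7, 55.6 and 66.7 CPM at 4 h. The unstimulated and 24 h libraries overlapped only through the lowest unstimulated library, 47.1 CPM, and the highest at 24 h, 48.1 CPM. The log2 fold change at 24 h was -1.03 ± 0.22 in CIS KO, -0.33 ± 0.22 in WT and -0.19 ± 0.23 in TGFBRII KO. WT libraries ran 48.3, 34.96, 40.2 and 55.2 CPM unstimulated, 52.6 and 43.8 CPM at 4 h and 42.97, 30.2, 35.8 and 32.6 CPM at 24 h. TGFBRII KO libraries ran 49.4, 55.4 and 47.4 CPM, 55.4, 50.4 and 42.3 CPM and 35.6, 41.5 and 55.96 CPM and overlapped throughout.

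Ifit1 (Entrez 15957; chromosome 19, 34640889 to 34650009) and Ifit3 (Entrez 15959; chromosome 19, 34583119 to 34588982) encode proteins that bind, or help to bind, viral RNA that lacks the host's cap methylation, and both are among the most responsive interferon genes known. Here they were close to the limit of counting in every group. The highest level of Ifit1 was 8.64 CPM. For Ifit3 the WT libraries at 24 h were at 4.03, 17.3, 0 and 0 CPM, so that 1 library held the highest value of the series beside 2 libraries with no count. Their reads are uncertain, since Ifit1 overlaps the gene model Ifit1bl1 and Ifit3 has the close copy Ifit3b, and the handling of shared reads by the authors is not stated in the labels. Neither gene was fitted, so none of their differences was tested. The unstimulated CIS KO libraries of Ifit1, at 0, 1.86, 1.96 and 2.77 CPM, all lay below the unstimulated WT libraries, at 6.35, 3.75, 5.87 and 5.52 CPM, on 4 counts in all against 19. At 4 h the CIS KO libraries of Ifit3 lay below both WT libraries, on 3 counts against 5. Of all genes tested, 7.88% were lower in CIS KO without overlap unstimulated and 8.17% at 4 h. In the other comparisons with unstimulated cells or with WT the libraries of both genes overlapped.

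Among the transcription factors, Irf1 (Entrez 16362; chromosome 11, 53770014 to 53778374, plus strand), an early target of interferon-γ, was the most abundant. The WT libraries stood at 178, 179.8, 140.0 and 173 CPM unstimulated, 282 and 195 CPM at 4 h and 179.9, 180.2, 185 and 172 CPM at 24 h. The CIS KO libraries stood at 204, 202, 177 and 165 CPM, 188, 216, 229 and 232 CPM and 171, 137, 167 and 191 CPM, and the TGFBRII KO libraries at 166, 158 and 193 CPM, 191, 184 and 159 CPM and 186, 165 and 191 CPM. Both WT libraries at 4 h lay above all unstimulated WT libraries, 1 of them clearly and the other narrowly. In that comparison 16.9% of all genes tested were higher without overlap. The log2 fold change at 4 h was 0.45 ± 0.15 in WT, 0.21 ± 0.12 in CIS KO and 0.046 ± 0.13 in TGFBRII KO. The WT value at 4 h was 0.22 with depth as a covariate and 0.22 without 4 h replicate 1. Replicate 1 at 4 h was also the shallowest library, with 297561 counts. At 24 h the log2 values were 0.11 ± 0.11 in WT, -0.18 ± 0.12 in CIS KO and 0.067 ± 0.13 in TGFBRII KO, and the libraries overlapped.

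Irf7 (Entrez 54123; chromosome 7, 141263183 to 141266499, minus strand), the factor that amplifies type I interferon production, was lower at 4 h in WT. Its WT libraries stood at 30.5, 32.5, 48.6 and 37.3 CPM unstimulated, 18.8 and 18.8 CPM at 4 h and 61.8, 48.6, 44.7 and 43.03 CPM at 24 h. The 4 h libraries were below all unstimulated and all 24 h WT libraries. Such separation is common with 2 libraries at 4 h. In WT, 19.0% of all genes tested were lower at 4 h than unstimulated without overlap, and 15.2% were higher at 24 h than at 4 h. The log2 fold change in WT was -1.01 ± 0.34 at 4 h and 0.39 ± 0.20 at 24 h, and from 4 h to 24 h it was 1.39 ± 0.33. The CIS KO libraries ran 33.1, 18.6, 25.5 and 23.6 CPM, 31.8, 21.4, 14.4 and 24.7 CPM and 26.9, 38.4, 24.9 and 26.1 CPM, with log2 fold changes of -0.027 ± 0.29 at 4 h and 0.32 ± 0.25 at 24 h. TGFBRII KO libraries ran 32.9, 38.6 and 37.7 CPM, 39.7, 20.2 and 21.7 CPM and 39.2, 32.7 and 32.1 CPM, with -0.41 ± 0.25 and -0.070 ± 0.24, so the value at 4 h was negative without the receptor too. The WT value at 4 h was -1.07 to -0.81 when single libraries were left out. Each 4 h WT library held few Irf7 reads, 5 and 15 counts.

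Stat2 (Entrez 20847; chromosome 10, 128270498 to 128292853, plus strand), a partner of Irf9 in the factor that binds the ISRE, had its widest spread in CIS KO at 24 h. WT ran 30.5, 41.2, 50.3 and 37.3 CPM unstimulated, 30.1 and 36.3 CPM at 4 h and 63.1, 49.6, 32.8 and 28.2 CPM at 24 h. CIS KO ran 22.1, 11.1, 21.6 and 19.4 CPM, 34.4, 14.3, 39.1 and 22.2 CPM and 15.6, 51.2, 34.3 and 13.9 CPM, and TGFBRII KO ran 40.5, 38.6 and 32.8 CPM, 24.1, 27.4 and 36.6 CPM and 36.8, 37.7 and 42.9 CPM. The unstimulated CIS KO libraries were all below the unstimulated WT libraries, as they were for 7.88% of all genes tested. The TGFB1 groups of CIS KO overlapped WT. The log2 fold change at 4 h was -0.23 ± 0.38 in WT, 0.65 ± 0.39 in CIS KO and -0.33 ± 0.33 in TGFBRII KO. At 24 h it was 0.12 ± 0.27, 0.81 ± 0.36 and 0.070 ± 0.32. With single libraries left out, the CIS KO value at 24 h was 0.21 to 1.01.

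Ifi208 (Entrez 100033459; chromosome 1, 173673628 to 173698393, plus strand) belongs to the HIN-200 family of interferon-inducible nuclear proteins, whose best known member, Aim2, senses DNA in the cytosol. Its level was lowest without the receptor in every condition. TGFBRII KO libraries stood at 17.7, 6.03 and 14.6 CPM unstimulated, 4.82, 5.76 and 8.002 CPM at 4 h and 13.1, 17.6 and 14.3 CPM at 24 h. The WT libraries stood at 48.3, 49.9, 78.8 and 55.2 CPM, 60.1 and 70.1 CPM and 30.9, 34.5, 35.8 and 38.6 CPM, and the CIS KO libraries at 30.4, 48.2, 35.3 and 40.2 CPM, 53.5, 40.4, 47.3 and 29.7 CPM and 41.04, 58.7, 48.3 and 40.04 CPM. All 9 TGFBRII KO libraries were below all 22 libraries of the other genotypes, 17.7 CPM at most against 29.7 CPM at least. Against WT alone, 5.38% of all genes tested were lower without overlap unstimulated, 19.3% at 4 h and 14.0% at 24 h.

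In unstimulated cells the log2 difference of Ifi208 between TGFBRII KO and WT was -2.21 ± 0.26, a 0.22-fold level, with an adjusted p of 4.8e-06 by edgeR's quasi-likelihood test over all 10275 genes. The choice of members may have drawn on this comparison, so the p-value is not independent evidence. The log2 difference was -3.39 ± 0.35 at 4 h and -1.21 ± 0.27 at 24 h. Leaving out 1 library at a time gave -2.51 to -1.87 in unstimulated cells. In WT the log2 fold change with TGFB1 was 0.17 ± 0.24 at 4 h and -0.76 ± 0.20 at 24 h. All 4 WT libraries at 24 h lay below the unstimulated ones, as they did for 11.9% of all genes tested. Without unstimulated replicate 3, the highest, the 24 h value was -0.56. The log2 fold changes at 4 h and 24 h were 0.17 ± 0.23 and 0.31 ± 0.21 in CIS KO and -1.004 ± 0.42 and 0.23 ± 0.35 in TGFBRII KO. The 4 other HIN-200 genes that passed the filter were not called in that comparison: the unstimulated difference was -0.080 ± 0.16 for Aim2, -0.24 ± 0.20 for Ifi209, -0.066 ± 0.16 for Mndal and -0.088 ± 0.12 for Ifi203 (adjusted p 0.94, 0.78, 0.95 and 0.90). The other 6 HIN-200 genes matched had at most 10 counts in any library. Members of this family are near copies of each other in places, so the split of reads between them is uncertain.

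Read as a set, the 7 fitted members moved in different directions. At 4 h in WT, 2 were called higher (Rsad2 and Irf1) and 1 lower (Irf7). The Irf1 call was lost in 6 of 7 alternatives, fits with 1 library left out aside. No member was called lower with DESeq2, the replicate block or the compared groups alone. Of all genes, 6.9% were called higher and 5.03% lower in the main fit. That background turned with library size alone: it was 709 genes higher and 517 lower in the main fit and 735 and 494 with RLE scaling, but 527 and 751 with library size alone. With DESeq2, which is also a different test, it was 623 and 275. The members' median log2 fold change was 0.072, beside -0.016 for all genes tested. At 24 h in WT, 0 were called higher and 2 lower (Isg15 and Ifi208), beside 9.63% and 11.5% of all genes, with medians of 0.11 and 0.026. In CIS KO, 1 was called at 4 h (Rsad2, higher), beside 14.1% of all genes, and 2 at 24 h (Isg15 and Bst2, lower), beside 24%. The CIS KO medians were 0.17 at 4 h and 0.31 at 24 h, beside -0.0034 and 0.035. In TGFBRII KO, 0 of 7 were called by edgeR or by DESeq2 at either time, beside 8.02% of all genes at 4 h and 0.0195% at 24 h. At an unadjusted p under 0.05 the TGFBRII KO count was 1 at 4 h and 0 at 24 h. Since the members were chosen on these contrasts, the counts are a description and nothing is read from them.

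**Figure D2:**
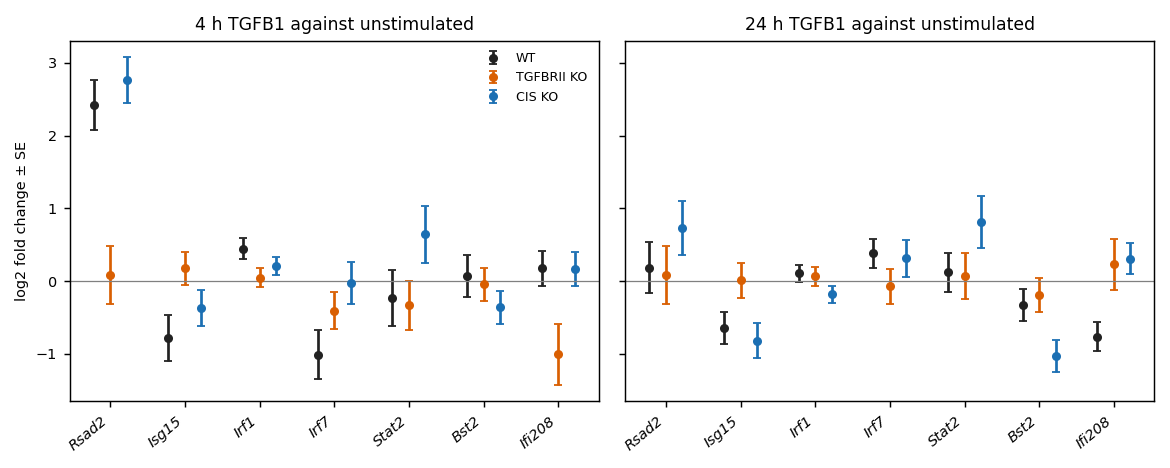
Log2 fold change against unstimulated cells (y axis, edgeR estimate with bars of 1 SE) of the 7 fitted members (x axis) at 4 h and 24 h of TGFB1, coloured by genotype. At 4 h Rsad2 stands at 2.42 in WT and 2.77 in CIS KO, and in both genotypes the other members lie nearer to 0. In TGFBRII KO at 4 h Rsad2 stands at 0.084 and Ifi208 lies farthest from 0, at -1.004.

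Before TGFB1, genotype differences of the members are not a response to TGFB1, and they are given with the adjusted p of the fit as a description. They use the same unstimulated WT libraries as the WT responses, and the choice of members may have drawn on them, so their p-values are not independent evidence. Against WT, 1 of 7 members was called in TGFBRII KO (Ifi208, lower), beside 0.146% of all genes. The other 6 had log2 differences from -0.12 to 0.20 with adjusted p of 0.86 or more by the same test. In CIS KO, 1 of 7 was called (Stat2, lower), beside 6.15% of all genes. Stat2 stood at 18.6 ± 5.09 CPM (SD, n = 4) in CIS KO and at 39.8 ± 8.27 CPM (SD, n = 4) in WT, a log2 difference of -1.14 ± 0.34 with an adjusted p of 0.044. Unstimulated CIS KO libraries were shallower, 392266 to 711659 counts against 712432 to 1135104 in WT. With library depth as a covariate the Stat2 difference was -0.65 (adjusted p 0.44), and with DESeq2 it was -1.12 (adjusted p 0.051). The call was also lost when any 1 of the 4 CIS KO libraries or WT replicate 2, 3 or 4 was left out, with values of -1.22 to -0.96. Of the rest, Irf7 was at -0.63 ± 0.24 (adjusted p 0.097), Ifi208 at -0.59 ± 0.21 (adjusted p 0.067), Bst2 at 0.55 ± 0.21 (adjusted p 0.088) and Irf1 at 0.16 ± 0.12 (adjusted p 0.41). Ifi208 passed the threshold without WT replicate 1 (-0.64). Isg15 (-0.066 ± 0.22) and Rsad2 (-0.085 ± 0.40) lay near 0.

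Ordered by mean level over the 9 groups, the libraries of neighbouring groups overlapped at all 8 steps for Isg15, Ifit1, Ifit3, Irf1, Irf7, Stat2 and Bst2. Rsad2 had 1 step without overlap, between WT at 4 h and CIS KO at 24 h, and Ifi208 had 1, between WT at 24 h and TGFBRII KO at 24 h. Isg15 had means from 43.2 CPM in TGFBRII KO 4 h to 22.7 CPM in CIS KO 24 h. Irf1 had means from 239 CPM in WT 4 h to 167 CPM in CIS KO 24 h. Irf7 had means from 49.5 CPM in WT 24 h to 18.8 CPM in WT 4 h. Stat2 had means from 43.4 CPM in WT 24 h to 18.6 CPM in CIS KO unstimulated. Bst2 had means from 65.6 CPM in CIS KO unstimulated to 33.6 CPM in CIS KO 24 h.

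Depth touched these genes unequally within groups. A count that follows depth in proportion has a slope of 1 for log2 count on log2 library total. The slope, fitted within the 9 groups over 31 libraries, was 1.10 ± 0.19 (SE) for Rsad2. It was above 1 for Stat2 (1.92 ± 0.22), Irf7 (1.57 ± 0.17) and Ifi208 (1.54 ± 0.12), and below 1 for Bst2 (0.61 ± 0.16), Isg15 (0.67 ± 0.17) and Irf1 (0.76 ± 0.055). Ifit1 and Ifit3 had 1.60 ± 0.52 and 1.46 ± 0.80. The part of depth in each genotype or TGFB1 difference was not tested beyond the covariate fit.

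**Figure D3:**
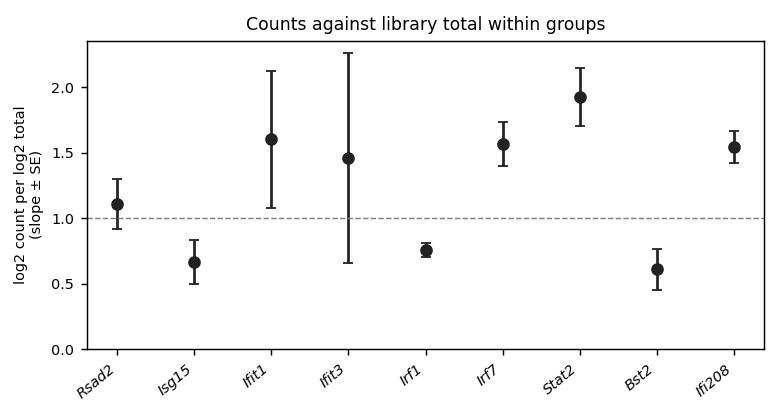
Slope of log2 count on log2 library total within groups (y axis, quasi-Poisson estimate with bars of 1 SE, 31 libraries) for each member (x axis), with a dashed line at the proportional slope of 1. Stat2, Irf7 and Ifi208 lie above the line and Irf1, Isg15 and Bst2 below it.

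Other interferon genes, in 6 lists with 152 genes matched and 114 fitted, moved in both directions at 4 h. In WT, 14 rose and 5 fell by edgeR's quasi-likelihood test (adjusted p under 0.05), beside 6.9% and 5.03% of all genes, with a median log2 fold change of 0.14 over the 114. Isg20, an exonuclease that degrades viral RNA, rose from 21.6 ± 10.5 CPM (SD, n = 4) to 101 ± 32.8 CPM (SD, n = 2), a log2 fold change of 1.997 ± 0.31 (adjusted p 1.6e-05). Of 12 fitted guanylate-binding and immunity-related GTPases, which attack the vacuoles of intracellular microbes, 3 rose and 1 fell: Gbp7 by 0.93 ± 0.13, Gbp3 by 1.09 ± 0.21 and Gbp5 by 0.97 ± 0.24, while Gbp4 was at -1.01 ± 0.22. Of 19 receptor and signalling genes, 5 rose and 2 fell. Ptpn6, the phosphatase that damps cytokine and NK receptor signals, rose by 0.67 ± 0.14. Both receptor chains for type I interferon fell, Ifnar1 by -0.90 ± 0.21 and Ifnar2 by -1.06 ± 0.24 as signed log2 values. Ciita, the master regulator of class II antigen presentation, rose by 1.33 ± 0.29. The calls of Isg20, Gbp7 and Gbp3 were kept in all alternatives run. The other calls named here each depended on 1 of the 2 libraries at 4 h. Without replicate 4, values were 0.32 for Gbp5, -0.94 for Gbp4, 0.97 for Ciita and -1.09 for Ifnar1. Without replicate 1, they were 0.50 for Ptpn6 and -0.81 for Ifnar2. These values did not pass the threshold.

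In CIS KO at 4 h, with 4 libraries, 13 of the 114 rose and 5 fell, together 15.8%, close to the 14.1% of all genes called. Isg20 was at 2.42 ± 0.27, Gbp3 at 1.73 ± 0.20, Gbp5 at 1.06 ± 0.22, Gbp7 at 0.98 ± 0.11, Gbp4 at -0.68 ± 0.18, Ptpn6 at 0.97 ± 0.12, Ifnar1 at -0.78 ± 0.19 and Ciita at 1.60 ± 0.29 (signed log2 fold changes, adjusted p from 2.2e-08 to 0.0084). Oas3, which makes the second messenger that activates RNase L, fell from 10.5 ± 1.998 CPM (SD, n = 4) to 1.15 ± 1.34 CPM (SD, n = 4), and Ifng, the interferon that NK cells secrete, rose from 96.98 ± 8.68 CPM (SD, n = 4) to 158 ± 12.4 CPM (SD, n = 4). These calls were kept in all alternatives run. The test of the CIS KO response against the WT response called 0 of the 114 genes at 4 h and 0 at 24 h by edgeR and by DESeq2, with 7 and 12 at an unadjusted p under 0.05, beside 0% and 1.33% of all genes called.

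At 24 h genes were called in both directions. In WT 13 rose and 12 fell, beside 9.63% and 11.5% of all genes, but 7 rose and 13 fell with library size alone and 5 and 9 with DESeq2. In CIS KO 12 rose and 13 fell, together 21.9%, beside 24% of all genes. Ciita reached 52.8 ± 11.8 CPM (SD, n = 4) in WT from 14.99 ± 4.74 CPM (SD, n = 4), a log2 fold change of 1.78 ± 0.21, and Isg20 was still up by 1.73 ± 0.24. Gbp4 (-0.91 ± 0.15) and Gbp6 (-1.90 ± 0.44) fell in WT, and no GTPase of the list rose. Oas3 (-2.37 ± 0.42), the interferon-inducible gene Ifi27l2a (-0.97 ± 0.14), the nucleic acid sensor Zbp1 (-0.98 ± 0.19) and the DNA sensor Cgas (-0.95 ± 0.20) fell too. In CIS KO, Irf8, a factor that NK cells use in antiviral expansion, fell by -1.10 ± 0.15 as a signed value, and Ifngr1, a receptor chain for interferon-γ, by -0.66 ± 0.12. Sting1, which acts after Cgas, was at -0.49 ± 0.10 and Mavs, the adaptor of RNA sensing, at 0.88 ± 0.21 in CIS KO. All of these calls were kept in all alternatives run.

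In TGFBRII KO, 6 of the 114 genes rose and 5 fell at 4 h, together 9.65%, beside 8.02% of all genes. With library size alone 6 rose and 3 fell, and with DESeq2 4 rose and 0 fell. At 24 h, 0 were called by edgeR or DESeq2, with 10 at an unadjusted p under 0.05. Of the genes named at 4 h, Samd9l, which restrains translation during infection (0.96 ± 0.22), and Irf4, a lymphocyte factor (0.94 ± 0.21), kept their calls in all alternatives run. The difference between the TGFBRII KO and WT responses was called for 10 of the 114 genes at 4 h and for 12 at 24 h, beside 7.57% and 10.8% of all genes. At 4 h it was -1.72 ± 0.47 for Isg20 (adjusted p 0.017), -0.73 ± 0.18 for Gbp7 (0.010) and 1.41 ± 0.27 for Gbp4 (0.00068). A negative value means a higher signed log2 fold change in WT than in TGFBRII KO, and a positive value a lower one. The Gbp4 call was kept in all alternatives. Isg20 lost its call without WT 4 h replicate 1 (-1.47) or unstimulated TGFBRII KO replicate 2 (-1.67). Gbp7 lost it without WT 4 h replicate 1 (-0.49) or unstimulated TGFBRII KO replicate 3 (-0.61). At 24 h it was -1.55 ± 0.44 for Isg20, 2.57 ± 0.55 for Oas3, 1.10 ± 0.27 for Zbp1 and 0.83 ± 0.21 for Ifi27l2a, all kept in all alternatives run.

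**Figure D4:**
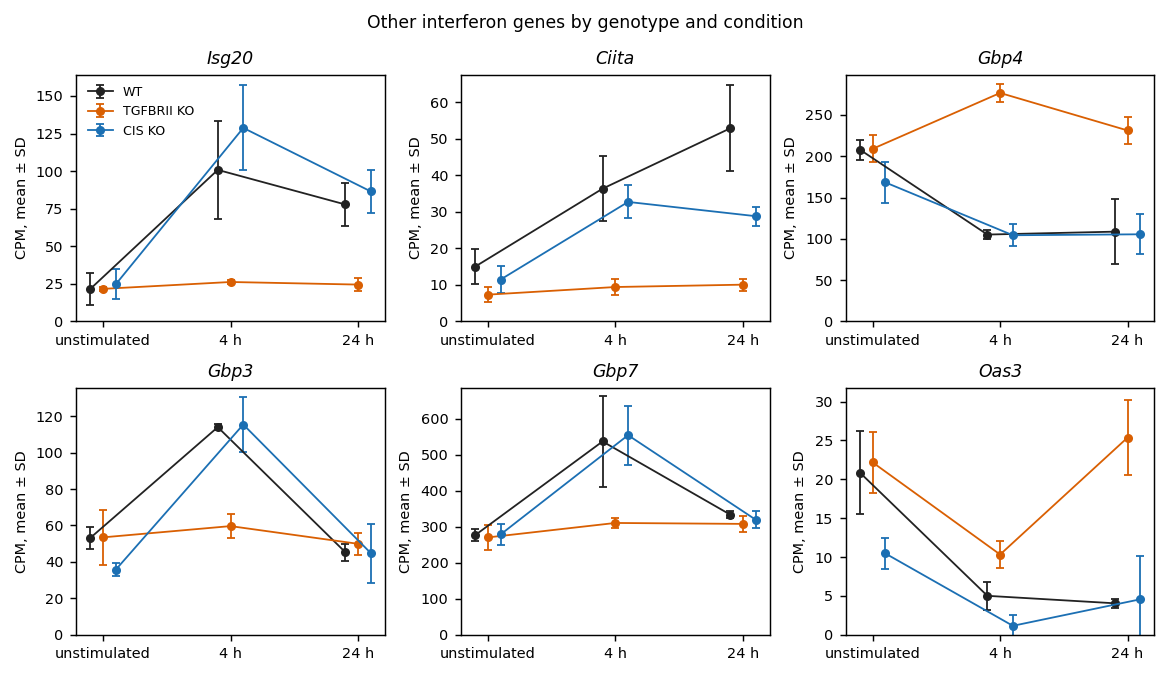
Mean level in CPM (y axis) of 6 other interferon genes by condition (x axis) and genotype (colour), with bars of 1 SD that are cut off at 0 and lines joining the means. Isg20 is at 101 CPM in WT and 129 CPM in CIS KO at 4 h against 26.3 CPM in TGFBRII KO, and Gbp3 and Gbp7 fall back by 24 h.

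Unstimulated TGFBRII KO and WT cells differed in 1 of the 114 genes, Ifitm3, which blocks virus entry, at -0.91 ± 0.18 (adjusted p 0.014). That call was lost without TGFBRII KO replicate 1 (-0.97) or 3 (-0.70) or WT replicate 3 (-0.82). Between unstimulated CIS KO and WT cells, 4 were higher and 8 lower in CIS KO, together 10.5%, beside 6.15% of all genes. The split was 5 and 6 with RLE scaling, 3 and 12 with library size alone, 3 and 3 with DESeq2 and 0 and 2 with depth as a covariate. The HIN-200 gene Ifi203 was lower, 129.8 ± 8.47 CPM (SD, n = 4) against 209 ± 18.4 CPM (SD, n = 4), a log2 difference of -0.69 ± 0.13 (adjusted p 0.0023) that was kept in all alternatives run. Each of the other 7 named calls of this comparison was lost in at least 1 alternative.

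The type I and III interferon transcripts in the lists, which do not cover all such genes, were at or near 0. Ifnb1, Ifna1, Ifna2, Ifna4, Ifne, Ifnk, Ifnl2 and Ifnl3 had 0 counts in all 31 libraries, and Ifnz had 0 to 2. Ifng, the type II interferon, was well detected with 32 to 140 counts per library. Cmpk2, a neighbour of Rsad2 that is often induced with it, had 0 to 11 counts and was not fitted. The type I interferon targets Mx1 (0 to 25 counts), Usp18 (0 to 22) and Oas1a (0 to 21) passed the filter and were called in none of the 3 genotypes at 4 h or 24 h. They are examples with few counts, taken from 53 fitted antiviral effectors. Of the 53, 11.3% were called in WT at 4 h and 15.1% at 24 h, beside 11.9% and 21.1% of all genes. In CIS KO it was 9.43% and 17.0%, beside 14.1% and 24.0%. In TGFBRII KO it was 9.43% and 0%, beside 8.02% and 0.0195%.

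Across all 31 libraries, the genes whose log2 CPM was most like that of Rsad2 by Pearson correlation were Spag9 (r = 0.88), Tmod3 (0.87) and Gbp7 (0.87). For Ifi208 they were Itga1 (r = 0.80), Gpr34 (0.75) and 2810025M15Rik (0.75), for Isg15 Gng11 (r = 0.79), Xdh (0.77) and Grk5 (0.76) and for Irf1 Arhgdib (r = 0.88), Tab2 (0.87) and Rassf5 (0.86). For Irf7 they were D130020L05Rik (r = 0.77), Adar (0.76) and Efcab14 (0.75), for Stat2 Terf2 (r = 0.83), Afmid (0.75) and Arid4a (0.74) and for Bst2 Sdhb (r = 0.86), Ltb4r1 (0.83) and Ebp (0.83). Between members, of 21 pairs, the highest r was 0.61 for Isg15 and Bst2, followed by 0.52 for Irf7 and Stat2 and 0.51 for Rsad2 and Irf1. The lowest were -0.49 for Irf1 and Irf7 and -0.47 for Rsad2 and Irf7. Spearman's rank correlation was 0.71, 0.64 and 0.57 for the genes named with Rsad2 and 0.55 to 0.85 for those named with the other members. These values describe the libraries, which share genotype, treatment and differences in depth.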

How the data were processed

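The 31 libraries in 9 groups were made from total RNA of sorted NK cells with a directional kit, per the labels' protocols. The authors deposited raw counts, 1 value for each gene and library, on build mm10. FastQC, Trimmomatic, Subread, featureCounts, Picard and SAMtools are listed per the submitters' processing notes, without versions. The strand setting and the handling of duplicate and shared reads are not stated there. Replicates are labelled biological, but nothing says which came from separate mice or cultures, so p-values measure the spread between these libraries.

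Symbols, positions and promoter sequences came from RefSeq on GRCm38.p6, and 9 of 9 members and 152 of 154 other interferon genes matched. The test was edgeR 4.0.16 (R 4.3.3): filterByExpr on 9 groups kept 10275 of 27179 genes, TMM scaled the libraries, and all 31 libraries entered 1 quasi-likelihood fit. P-values were adjusted over all genes by Benjamini-Hochberg, with calls made at values under 0.05. Fold changes are log2 with their SE. CPM is scaled with TMM and was computed here. Response differences between genotypes are interaction terms. The tests were checked on simulated data. Total counts of 297561 to 1403005 limit what can be seen in genes with few reads.

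The members and all gene lists were chosen with earlier results of these data known. Named genes are the 9 members, up to 4 called genes with the smallest p in each of 6 lists and comparison, and the 3 genes most alike to each member. Some uncalled or unfitted genes of the lists are named as well, as examples outside this rule. DESeq2, other scalings, no low-count filter, depth as a covariate, a replicate block, the compared groups alone and leaving out each library were tried. Where the named-gene rule took in an item that is not reported here, it was left out of the text, while the counts over the lists keep it.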

Additional observations from a re-analysis of the deposited data

Results flagged for a closer look

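Of 45 member and group combinations with 4 libraries, 2 held a library set apart from the other 3, and chance sets apart about 1 in 20. Both were CIS KO at 24 h, replicate 2, the deepest library with 1403005 counts: Rsad2 at 20.9 CPM and Irf7 at 38.4 CPM.

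The response to TGFB1 differed between TGFBRII KO and WT for these other interferon genes by the interaction term, which is given as TGFBRII KO less WT on the log2 scale. At 4 h it was -0.88 for Lgals9, -1.72 for Isg20, -0.55 for Dtx3l, -0.73 for Gbp7, -1.14 for Gbp5, -0.92 for Gbp3 and -1.12 for Irf2bp2, and it was positive for Gbp4 at 1.41 and Irf4 at 1.67. At 24 h it was -1.55 for Isg20, -0.92 for Irgm2, -1.38 for Irf2bp2 and -0.71 for Ptpn6. It was 0.98 for Ifi209, 2.57 for Oas3, 1.10 for Zbp1, 0.83 for Ifi27l2a, 1.06 for Gbp4 and 2.04 for Gbp6. Of these named calls, 1 of 9 at 4 h (Gbp4) and 7 of 10 at 24 h were kept in all alternatives run. For Rsad2, which was chosen on its response to TGFB1, the same quantity at 4 h was -2.33 and is a description, not a test.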

How the results depend on the processing

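The unstimulated Ifi208 difference between TGFBRII KO and WT kept its call in all alternatives run, though the choice of members may have drawn on that comparison. For the rest the cause of a change was not tested. Counts of members called under TGFB1 use the contrasts on which the members were chosen and only describe them. Library size alone moved the median log2 fold change of all genes by 0.10 in CIS KO, 24 h against 4 h, and by less in the other comparisons. Of 7 members, the number called in WT at 4 h was 3. That number was 2 with library size alone, no low-count filter or depth as a covariate, and 1 with DESeq2, the replicate block or the compared groups alone. In WT at 24 h it was 2, and 1 with DESeq2 or the compared groups alone. In CIS KO at 24 h it was 2, and 1 with depth as a covariate or the compared groups alone. For unstimulated CIS KO against WT it was 1, and 0 with DESeq2, depth or the replicate block. Leaving out 1 library gave 1 to 3, 1 to 2, 1 to 3 and 0 to 2 in these comparisons.

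Of 114 other interferon genes, WT at 4 h had 19 called, and 11 with the replicate block. WT at 24 h had 25, and 14 with DESeq2 and 15 with the compared groups alone. TGFBRII KO at 4 h had 11, and 4 with DESeq2, 22 with depth and 23 with the compared groups alone. TGFBRII KO at 24 h had 0, and 2 without the low-count filter and 5 with the compared groups alone. Unstimulated TGFBRII KO against WT had 1, and 3 without the filter. Unstimulated CIS KO against WT had 12, and 6 with DESeq2, 29 without the filter, 2 with depth and 22 with the compared groups alone. The response difference of TGFBRII KO and WT at 4 h had 10, and 18 without the filter. That of CIS KO and WT had 0 at 4 h and at 24 h, and 1 and 3 without the filter. Leaving out 1 library gave 11 to 21 in WT at 4 h, 16 to 22 at 24 h, 2 to 8 and 0 to 0 in TGFBRII KO, 13 to 18 and 19 to 30 in CIS KO, 0 to 1 and 1 to 18 in the unstimulated comparisons, 6 to 12 and 10 to 16 for the TGFBRII KO response difference and 0 to 0 and 0 to 2 for that of CIS KO.

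Uncalled unstimulated differences changed sign for Irf1 in CIS KO (-0.059 with depth). Leaving out 1 library gave, against WT in TGFBRII KO, -0.20 to 0.26 for Rsad2, -0.040 to 0.11 for Irf1, -0.15 to 0.14 for Irf7 and -0.23 to 0.046 for Stat2. In CIS KO it gave -0.55 to 0.10 for Rsad2 and -0.23 to 0.076 for Isg15. Over all genes, the count called in WT at 4 h was 1226, and 662 with the replicate block and 722 with the compared groups alone. In TGFBRII KO at 4 h it was 824, and 433 with DESeq2, 1360 with depth and 1336 with the compared groups alone. In TGFBRII KO at 24 h it was 2, and 0 with library size alone, DESeq2 or the block, 79 without the filter, 13 with depth and 206 with the compared groups alone. In CIS KO at 24 h it was 2469, and 1421 with the compared groups alone. Unstimulated TGFBRII KO had 15, and 173 without the filter and 64 with depth. Unstimulated CIS KO had 632, and 332, 1197, 73 and 1109 with DESeq2, no filter, depth and the compared groups alone. The TGFBRII KO response difference at 4 h had 778, and 491 with DESeq2 and 485 with the block. The CIS KO one had 0 at 4 h, and 68 without the filter, and 137 at 24 h, and 335, 57 and 83 without the filter, with depth and with the compared groups alone.

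Equal replicate numbers were not treated as pairs in the main fit. Deviations of 29 same-numbered pairs correlated at -0.39 to 0.25, with 7 over 0.1, and 20 of 50 checks found the best match in a library's own number. In TGFBRII KO all same-numbered pairs correlated above 0, at 0.015 to 0.20. The share of best matches to be had by chance was not computed, so some pairing remains possible.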
